A study of Homo sapiens with 6 samples.

Results

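The small nucleolar RNA (snoRNA) host and decay-sensitive long noncoding RNA (lncRNA) genes GAS5, ZFAS1, EPB41L4A-AS1, SNHG1, SNHG5, SNHG8, SNHG12, SNHG15, SNHG16 and SNHG29 were followed in HK-2 cells overexpressing PPM1K. The members are a list of gene symbols, and all 10 were found among the 31369 genes of the count table. HK-2 is a cell line made from the proximal tubule of a human kidney. RNA sequencing was done on 3 control samples (NC, genotype entry WT) and 3 overexpression samples (OE, genotype entry PPM1K overexpress), each given in the labels as day 10 and as chronic kidney disease in the treatment entry. The sample titles name a short hairpin (shControl and shPPM1K) instead, while the paper describes lipid transfection of a PPM1K plasmid and does not say what the NC cells received. The targeted gene PPM1K had 19 to 53 counts in NC against 2919 to 3531 in OE, as the genotype entries would have it, so NC and OE are named by those entries. The labels number the samples of a group and do not say whether these were separate cultures, so p-values measure the spread between these samples only.

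snoRNAs are short RNAs that guide the chemical modification of ribosomal RNA, and in human cells most are cut out of the introns of a host gene. In the genes listed here the spliced exons that remain carry no long reading frame. Such spliced RNAs are translated briefly and then removed by nonsense-mediated decay (NMD), the pathway that destroys RNAs with an early stop codon, so they are known to build up when translation or NMD is held back. Many host genes start with a C followed by a run of pyrimidines (C or T), the terminal oligopyrimidine (TOP) start that they share with ribosomal protein genes.

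Samples held 34635770 to 36116963 counts in NC and 36033404 to 39850802 in OE. NC replicate 2 stood apart, with a count in 26478 genes against 22094 to 22913 in the other 5 samples. In the paper this sample also had the largest shares of intronic, intergenic and antisense reads. Each of these shares was larger in every NC sample than in every OE sample, and what that does to the values below was not tested. Numbers of called genes that change without NC replicate 2 are given with each group of genes. Of 9 markers of kidney tubule epithelium, 8 had an FPKM (fragments relative to transcript length and sequencing depth) of at least 1 in every sample, and the FPKM summed over all 9 was 745 to 841 in NC and 642 to 699 in OE. Of 7 markers of the differentiated proximal tubule none did, and ANPEP, AQP1, CUBN, HNF4A and LRP2 did not exceed 0.1 in any sample, with a sum over the 7 of 0.35 to 0.50 in NC and 0.29 to 0.33 in OE. Summed FPKM was at most 0.1 over 3 white blood cell markers, and over 3 endothelial markers it was 0.52 to 0.69 in NC and 0.73 to 0.87 in OE. Over 3 fibroblast markers, DCN and PDGFRA being at or under 0.1, it was 1.60 to 1.74 in NC and 0.38 to 0.52 in OE, and the NC and OE ranges did not overlap for these sums, white blood cells apart. Their part in the results below was not tested. In RNA from a whole culture, fewer cells that express a gene and less RNA per cell cannot be told apart.

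RefSeq start windows were found for 9 of the 10 genes, SNHG15 being the exception. The 5 that begin with C are shown because they run from ZFAS1, the gene of the 10 with the highest log2 fold change, to SNHG12, which did not pass the test. Each window holds 20 bases before the start and 30 from the start on, in the 5′ to 3′ direction of the gene, and capitals mark the run of C and T that opens with the first base. They lie on GRCh38.p14 at chr20:49278622-49278671 (plus strand) for ZFAS1, chr4:118278742-118278791 (plus) for SNHG8, chr11:62855856-62855905 (minus) for SNHG1, chr6:85678704-85678753 (minus) for SNHG5 and chr1:28581844-28581893 (minus) for SNHG12.
ZFAS1: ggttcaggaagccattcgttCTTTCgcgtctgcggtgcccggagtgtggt
SNHG8: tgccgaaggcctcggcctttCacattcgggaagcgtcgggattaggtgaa
SNHG1: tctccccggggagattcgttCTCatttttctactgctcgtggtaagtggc
SNHG5: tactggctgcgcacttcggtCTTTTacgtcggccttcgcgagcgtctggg
SNHG12: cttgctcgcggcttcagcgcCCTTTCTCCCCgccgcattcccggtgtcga

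Of the 9 windows, 3 (ZFAS1, SNHG5 and SNHG12) opened with C and at least 4 further pyrimidines, a start held by 4.07% of the 35116 RefSeq promoters. A C as the opening base was present in 14.7% of all promoters. GAS5, EPB41L4A-AS1, SNHG16 and SNHG29 have another base at the RefSeq start, which need not be the start used in these cells. Over 300 bases of promoter, none of the 9 held TGATGCAA on either strand, the letters of the element bound by ATF4 with C/EBP proteins, present in 0.866% of all promoters. Likewise none held CACGTG, the E-box, present in 7.26%.

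Of the 10 genes, 6 were higher in OE at a Benjamini-Hochberg adjusted p under 0.05 by edgeR's quasi-likelihood test, where 24.9% of the 15878 tested genes were. ZFAS1, GAS5, SNHG8, SNHG1, SNHG15 and SNHG29 made up this group, with log2 fold changes from 0.42 to 1.33. By edgeR none of the 10 was lower, against 23.7% of all tested genes. At an unadjusted p under 0.05, 1 was lower (EPB41L4A-AS1), and DESeq2 and limma on log2(FPKM + 1) called 0 lower. With the added requirement of a fold change above 2, ZFAS1 and GAS5 were called higher, where 1.73% of the tested genes were, and none passed a fold change below 0.5, where 3.79% did. In CPM (counts brought by edgeR to a common library size), the 6 genes called higher had every OE sample above every NC sample, and groups that do not overlap were found in 55.3% of the tested genes. The median log2 fold change of the 10 genes was 0.47, that of all tested genes was −0.00321, and that of the 1748 tested lncRNA genes was −0.13. All 10 passed the filter on low counts. Their mean count was 52.0 for SNHG5 and 528.5 to 8590 for the others. Among the 413 tested lncRNA genes that averaged 100 counts or more, 29.3% were higher and 28.3% lower at the same adjusted p. The median log2 fold change of those 413 genes was 0.034.

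**Figure D1:**
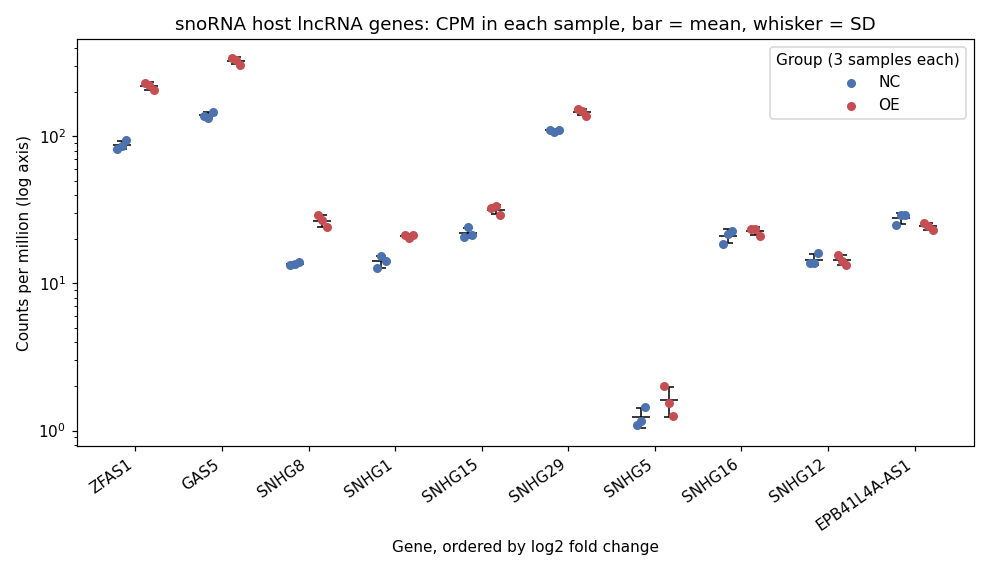
CPM of each lncRNA gene on a log axis, 3 NC samples in blue and 3 OE samples in red, with the mean and SD of each group. The red points lie above the blue ones without overlap for ZFAS1, GAS5, SNHG8, SNHG1, SNHG15 and SNHG29, and the groups overlap for the other 4 genes.

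GAS5 (growth arrest specific 5, ENSG00000234741.8) is a minus-strand gene of chromosome 1, at 173858559 to 173868882 (GRCh38, GENCODE release 44, as for all positions below). RefSeq places 11 snoRNAs within these bounds, among them SNORD44, SNORD47 and SNORD74 to SNORD81. In order of replicate number, its CPM was 138, 134 and 146 in NC and 340, 332 and 306 in OE. Every OE sample was more than 2-fold above every NC sample. The log2 fold change was 1.23 (standard error, SE, 0.05, edgeR adjusted p = 1.4e-13). ZFAS1 (ENSG00000177410.13), host of SNORD12, SNORD12B and SNORD12C, lies on the plus strand of chromosome 20, from 49278178 to 49299600. It had a CPM of 82.5, 85.7 and 94.2 in NC and 231, 222 and 206 in OE. Again the lowest OE sample was above 2 times the highest NC sample, and the log2 fold change was 1.33 (SE 0.06, edgeR adjusted p = 1.4e-13). For both genes the exact two-sided permutation p of CPM was 0.1, the smallest that 3 samples against 3 allow. Among those 413 lncRNA genes, ZFAS1 ranked 8 and GAS5 ranked 10 by log2 fold change.

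SNHG8 (ENSG00000269893.8), on the plus strand of chromosome 4 from 118278703 to 118285316, hosts SNORA24 and stood just under the fold change threshold. Its CPM was 13.3, 13.6 and 14.0 in NC and 29.2, 26.8 and 24 in OE. The NC samples differed by little, and the OE samples were all higher, with OE replicate 3 the lowest of them. The log2 fold change was 0.97 (SE 0.08, edgeR adjusted p = 5.3e-09), and it was 1.03 without OE replicate 3, which put SNHG8 past a fold change of 2 beside ZFAS1 and GAS5, 3 genes in all.

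SNHG1, SNHG15 and SNHG29 rose by less. SNHG1 (ENSG00000255717.7), host of SNORD22 and of SNORD25 to SNORD31, lies on chromosome 11 (minus strand) from 62851978 to 62855953. Its CPM was 12.8, 15.4 and 14.1 in NC and 21.3, 20.4 and 21.3 in OE, with a log2 fold change of 0.57 (SE 0.08, edgeR adjusted p = 6.8e-06). SNHG15 (ENSG00000232956.9), host of SNORA9, lies on chromosome 7 (minus strand) from 44983019 to 44986961. It had a CPM of 20.8, 24.1 and 21.2 in NC and 32.4, 33.6 and 29.2 in OE, a log2 fold change of 0.53 (SE 0.08, edgeR adjusted p = 1.2e-05). In both genes NC replicate 2 was the highest NC sample and still lay below every OE sample. SNHG29 (ENSG00000175061.18), host of SNORD49A, SNORD49B and SNORD65, lies on the plus strand of chromosome 17 from 16438767 to 16480249. With a CPM of 111, 107 and 110 in NC and 153, 148 and 138 in OE, its log2 fold change was 0.42 (SE 0.05, edgeR adjusted p = 8.8e-07). Its replicates lay close together, with a coefficient of variation of 1.78% in NC and 4.98% in OE.

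The other 4 genes did not pass the test. SNHG16 (ENSG00000163597.15, chromosome 17, 76557727 to 76670985, plus strand), host of SNORD1A, SNORD1B and SNORD1C, had a CPM of 18.5, 21.8 and 22.8 in NC and 23.5, 23.5 and 21.2 in OE (log2 fold change 0.11, SE 0.08, edgeR adjusted p = 0.29). SNHG12 (ENSG00000197989.14, chromosome 1, 28578538 to 28583132, minus strand), host of SNORA16A, SNORA44, SNORA61 and SNORD99, had 13.9, 13.7 and 16 in NC and 15.7, 14.2 and 13.4 in OE. Its log2 fold change was −0.01 (SE 0.09, edgeR adjusted p = 0.93), with NC replicate 3 the highest of the 6 samples. EPB41L4A-AS1 (ENSG00000224032.7, chromosome 5, 112160526 to 112164818, plus strand), host of SNORA13, had 25.0, 29.2 and 29.1 in NC and 25.6, 24.5 and 23.2 in OE. NC replicate 1 fell within the OE range. Its log2 fold change was −0.18 (SE 0.08, edgeR adjusted p = 0.058), and without NC replicate 1 it was −0.25 with an adjusted p of 0.018 from edgeR.

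SNHG5, host of SNORD50A and SNORD50B, was barely counted under its own symbol. Its row (ENSG00000203875.13, chromosome 6, 85650491 to 85678932, minus strand) held 38, 41 and 52 counts in NC and 74, 61 and 46 in OE, a log2 fold change of 0.38 (SE 0.24, edgeR adjusted p = 0.20). A gene on the same strand, RP11-321N4.5 (ENSG00000271793.2), starts 199 bases from it in GENCODE and shares 943 exon bases with it, beside 2832 with SYNCRIP and 4849 with SNX14, out of 8624. RP11-321N4.5 held 17270, 17352 and 17789 counts in NC and 24072, 25783 and 25096 in OE. Every OE sample was higher, and its log2 fold change was 0.43 (SE 0.05, edgeR adjusted p = 3.8e-07). SYNCRIP, an RNA-binding protein gene, had a log2 fold change of 0.50 and SNX14, a sorting nexin gene, one of −0.40. How the authors' counting divided reads among genes that share exons is not given in the sources used here, so the level of SNHG5 is uncertain.

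**Figure D2:**
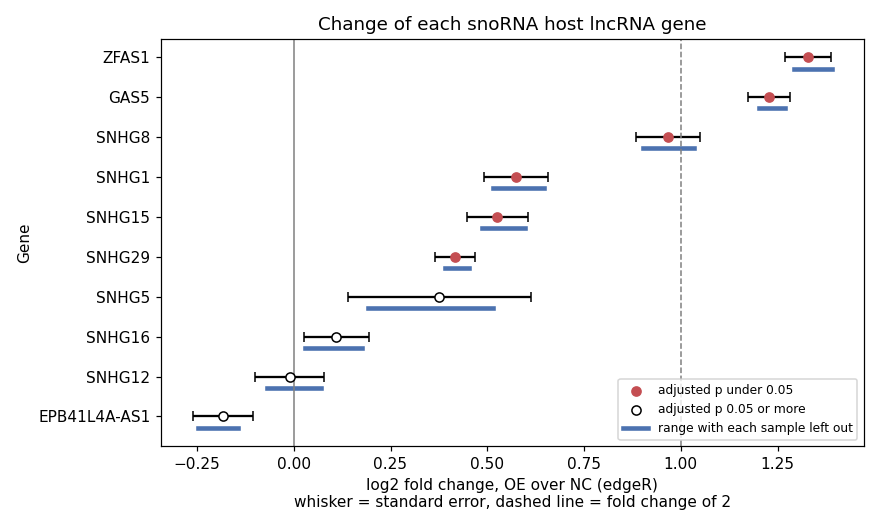
Log2 fold change of OE over NC for each lncRNA gene with its standard error (black) and the range of values with each of the 6 samples left out in turn (blue). ZFAS1 at 1.33 and GAS5 at 1.23 lie beyond the dashed line at a fold change of 2, and the range of SNHG8, from 0.90 to 1.03, crosses it.

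In the order of log2 fold changes, some steps were larger than their error. GAS5 lay 0.26 above SNHG8 on the log2 scale, 2.64 times the combined standard error of the pair, and SNHG8 lay 0.39 above SNHG1, 3.35 times. ZFAS1 and GAS5 differed by 1.26 combined standard errors. Each step below SNHG1 was at most 1.46 of them, so adjacent genes from SNHG1 to EPB41L4A-AS1 were not resolved. Genes further apart in the order were not compared by these errors. These errors take the genes as independent although they come from the same 6 libraries.

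By FPKM, the level per gene length used by the authors, GAS5 was highest in both groups. It had 26.5 ± 1.33 in the NC samples and 62.9 ± 2.66 in the OE samples (mean ± SD, n = 3 each). SNHG29 came next in NC with 14.1 ± 0.43 and ZFAS1 followed with 9.69 ± 0.67 (SD, n = 3 each). In OE this order was turned, with 24.7 ± 1.08 for ZFAS1 and 19.0 ± 0.70 for SNHG29 (SD, n = 3 each), and no sample of either gene overlapped with the other. EPB41L4A-AS1 came after them in NC with a mean FPKM of 6.54, above SNHG15 with 5.15, while in OE SNHG15 had 7.53 and EPB41L4A-AS1 5.85. SNHG16, SNHG1 and SNHG12 had 3.62, 3.27 and 3.14 in NC with samples that overlapped. SNHG8 moved from 1.90 in NC to 3.77 in OE, where its samples overlapped with those of SNHG16 at 3.96 and lay above those of SNHG12 at 3.16. SNHG5 was lowest throughout, at 0.08 to 0.15, but its level is uncertain because of the shared exons described above. The gene lengths behind FPKM are not given in the sources used here. GENCODE lists 91 transcripts for GAS5, 62 for SNHG29 and 14 for ZFAS1, so the order between genes depends on the length used. In CPM, which uses no length, SNHG29 and ZFAS1 had means of 110 and 87.5 in NC and 146 and 220 in OE.

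Together the 10 genes took 437 to 467 CPM (here of the total count, without scaling) in NC and 790 to 859 in OE. GAS5 and ZFAS1 made up 49.2% to 51.2% of these counts in NC and 65.3% to 65.4% in OE. Without that pair the remaining 8 genes took 217 to 230 CPM in NC and 274 to 297 in OE. The groups did not overlap in any of these sums. Relative to GAS5 in the same sample, the counts of EPB41L4A-AS1 were 18.1% to 21.8% in NC and 7.38% to 7.59% in OE, and those of SNHG12 were 10.1% to 11% in NC and 4.28% to 4.62% in OE.

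The snoRNAs themselves were hardly counted. RefSeq lists 38 within the bounds of the 10 genes, and 4 of these had a row in the count table, with at most 14 counts in any sample. SNORD99, inside SNHG12, had 6, 7 and 12 counts in NC and 14, 13 and 9 in OE. SNORD12C, inside ZFAS1, had 6, 5 and 4 in NC and 4, 5 and 8 in OE, groups that overlapped although its host rose. SNORA13 and SNORD1B had at most 1 count per sample. The libraries were made with an mRNA kit and selected by size, a preparation that is not made to keep short RNAs without a poly(A) tail.

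Several of these genes overlap or adjoin a protein-coding gene, and the values of both were set side by side. Distances and shared bases are by GENCODE bounds and exons, whose starts differ for some genes, ZFAS1 among them, from the RefSeq starts shown above. SNHG1 starts 51 bases from SLC3A2 on the other strand, the heavy chain of amino acid transporters such as SLC7A5 and SLC7A11. SLC3A2 had 2527, 2448 and 2425 counts in NC and 7201, 7133 and 6518 in OE, a log2 fold change of 1.40 (SE 0.05, edgeR adjusted p = 1.2e-14) against 0.57 for SNHG1. The log2 ratio of SNHG1 to SLC3A2 was −2.31 in NC and −3.14 in OE, without overlap (exact two-sided permutation p = 0.1, the smallest possible), so both rose and SLC3A2 rose more.

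ZFAS1 rose while a coding gene on the other strand that shares exon bases with it did not pass the test. ZNFX1, a zinc finger helicase gene that starts 248 bases from ZFAS1 and shares 249 exon bases with it, had a log2 fold change of −0.02 (SE 0.05, edgeR adjusted p = 0.80), with CPM ranges that overlapped. ZBTB37, a zinc finger gene that overlaps GAS5 and shares no exon base with it, was higher in OE by 0.31 (SE 0.10, edgeR adjusted p = 0.013). The log2 ratio to the neighbour was larger in OE by 1.35 for ZFAS1 over ZNFX1 and by 0.92 for GAS5 over ZBTB37, each without overlap between the groups (exact permutation p = 0.1).

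SNHG8 shares 2487 exon bases with PRSS12, a serine protease gene on the other strand, whose log2 fold change was 0.08 (SE 0.07, edgeR adjusted p = 0.34). SNHG12 did not pass the test, yet TRNAU1AP, a selenocysteine tRNA-associated protein gene that shares 8 exon bases with it, fell from 811, 773 and 828 counts in NC to 571, 671 and 484 in OE (log2 fold change −0.58, SE 0.09, edgeR adjusted p = 1.2e-05). EPB41L4A, which shares 2200 exon bases with EPB41L4A-AS1, had −0.04 (SE 0.14, edgeR adjusted p = 0.82). LRRC75A, opposite SNHG29, had 27 to 49 counts per sample and a log2 fold change of 0.32 (SE 0.26, edgeR adjusted p = 0.33). SNHG16 had no tested neighbour, and SNHG15 had none by the rule. The library kit keeps strand, but whether the counting used it is not given in the sources used here, so counts in shared bases of opposite genes are uncertain.

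**Figure D3:**
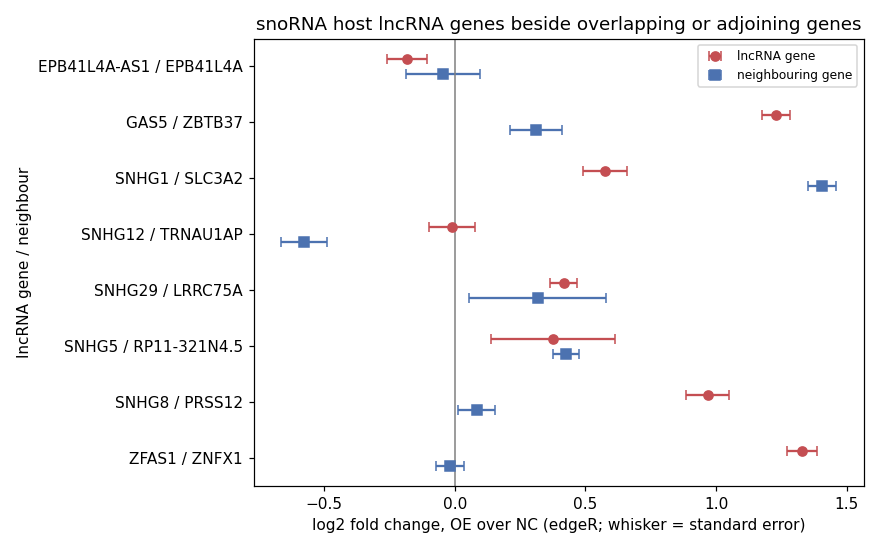
Log2 fold change of OE over NC, with standard error, of each lncRNA gene (red circles) and of tested genes that overlap it or start within 1000 bases on the other strand (blue squares). ZFAS1, GAS5 and SNHG8 lie to the right of the neighbours drawn, while SNHG1 at 0.57 lies to the left of SLC3A2 at 1.40.

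Of 18 other noncoding snoRNA host genes tested, edgeR called 6 higher and 4 lower (adjusted p under 0.05), where 24.9% and 23.7% of all tested genes were, so both shares lay near those of all genes. The median log2 fold change was −0.04. SNHG32 and SNHG17 passed a fold change of 2, with 1.46 (SE 0.07, edgeR adjusted p = 1.6e-12) and 1.13 (SE 0.09, edgeR adjusted p = 1.4e-09). SNHG32 shares exon bases with another gene on its strand and SNHG17 with none. SNHG6 was higher by 0.37 on the log2 scale. SNHG18, SNHG10 and SNHG21 were lower, with log2 fold changes of −0.51, −0.53 and −0.58 and a mean CPM under 8 in both groups. SNHG21 too shares exon bases with another gene on its strand. The balance depended on the setting, with 3 higher and 1 lower by limma on log2(FPKM + 1), 5 and 2 by DESeq2, 6 and 1 without NC replicate 2, 5 and 6 with upper quartile normalization, and 6 and 6 where a gene needed 10 counts in each sample.

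Of 28 protein-coding genes with snoRNAs in their introns, ribosomal protein genes left out, 12 were higher and 3 lower, beside 24.9% and 23.7% of all tested genes. None passed a fold change of 2 in either direction, as 1.73% (higher) and 3.79% (lower) of all tested genes did, and the median log2 fold change was 0.11. HSPA9, the mitochondrial HSP70 chaperone, had 0.91, DKC1, the pseudouridine synthase of box H/ACA snoRNPs, had 0.69 and EIF4A2, a translation initiation helicase, had 0.35. HSPA8, the constitutive cytosolic HSP70, fell by 0.80 on the log2 scale. RBMX, an RNA-binding protein gene, had −0.19 and EIF4A1 −0.40. EIF4A1 shares exon bases with 2 genes on its strand and had a mean count of 258.0, so its value is uncertain. Among the 28 genes, 12 were higher and 2 lower when NC replicate 2 was left out.

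The machinery of NMD was measured in the same samples. Of 18 genes for NMD factors, 15 were higher in OE by edgeR and by DESeq2 and none lower by either tool, while edgeR called 24.9% of all tested genes higher and 23.7% lower. Their median log2 fold change was 0.36, with values from −0.21 to 0.83. At an unadjusted p under 0.05, 1 was lower. SMG9, a subunit of the SMG1 kinase complex, had a log2 fold change of 0.72 (SE 0.07, edgeR adjusted p = 2.5e-08), and UPF3B, which joins UPF proteins to the exon junction complex, had 0.50 (adjusted p = 2.7e-08 from edgeR). None passed a fold change of 2. The number lower was 1 without NC replicate 3, 1 without OE replicate 3 and 1 with upper quartile normalization. With NC replicate 2 left out, 13 were higher and 0 lower.

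Among 21 genes with transcripts known as NMD substrates, 9 were higher and 6 lower, against 24.9% and 23.7% of all tested genes. This puts the share lower near that of all genes. RP9P, among those higher, is a transcribed pseudogene, and the others give mRNAs. The median log2 fold change was 0.06. UPP1, uridine phosphorylase, rose from 51.8 CPM to 193 (log2 fold change 1.90, SE 0.06, edgeR adjusted p = 3.1e-16). GADD45A, a stress-induced growth arrest gene, rose from 166 to 404 (log2 fold change 1.28, SE 0.05, edgeR adjusted p = 3.9e-14). HNRNPDL, which regulates its own splicing, had 0.53. ATF3, a stress transcription factor, had −0.29, TRA2A, a splicing factor, had −0.26 and SAT1, an enzyme of polyamine breakdown, had −0.24. SAT1 shares exon bases with another gene on its strand. The list holds genes of the stress response and of growth arrest that are also regulated at other steps. Counts are per gene, so a transcript form that NMD removes is not told apart from the other forms of its gene. The number lower was 3 by limma on log2(FPKM + 0.1), 4 by limma on log2(FPKM + 1), without NC replicate 3, without OE replicate 2 or when replicate number was a block, and 7 with upper quartile normalization. Leaving out NC replicate 2 gave 8 higher and 5 lower.

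Of 16 genes for proteins that bind or assemble snoRNAs, 12 were higher and 1 lower, where 24.9% and 23.7% of all tested genes were. When NC replicate 2 was left out, 10 were higher and 1 lower. Their median log2 fold change was 0.34 and none passed a fold change of 2. DKC1 is in this list too. ZNHIT6, an assembly factor of box C/D snoRNPs, had 0.66 (SE 0.05, edgeR adjusted p = 1.7e-09), and NOLC1, a nucleolar chaperone of snoRNPs, had 0.57 (SE 0.05, edgeR adjusted p = 8.2e-09). NHP2, a core protein of H/ACA snoRNPs, was the gene lower, with −0.43 (SE 0.06, edgeR adjusted p = 1.9e-06), and the number lower was 2 without OE replicate 3 and 2 with upper quartile normalization.

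**Figure D4:**
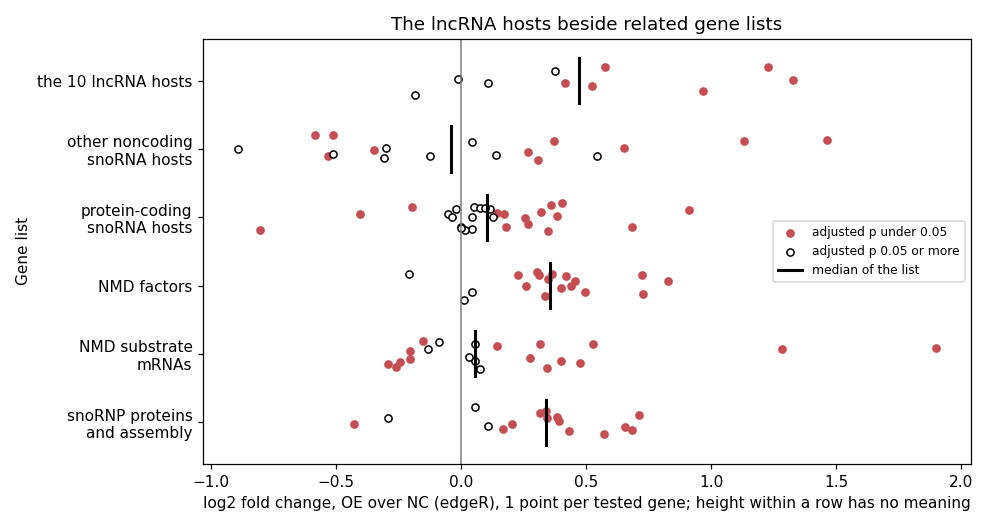
Log2 fold change of OE over NC for each tested gene of the 10 lncRNA hosts and of 5 related lists, red at an adjusted p under 0.05, with the median of each list as a bar. The medians are 0.47 for the lncRNA hosts, −0.04 for other noncoding hosts, 0.11 for protein-coding hosts, 0.36 for NMD factors, 0.06 for NMD substrates (mRNAs and the pseudogene RP9P) and 0.34 for snoRNP proteins.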

How the data were processed

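Per the paper's methods, the authors trimmed the paired reads and mapped them with HISAT2, the build being GRCh38 (the processing notes also list mm10, but all matched gene identifiers are human), and only uniquely placed reads entered the gene counts. The deposited counts are whole numbers without normalization. The deposited FPKM values were computed by the authors from the same reads and are rounded to 2 decimals. The counting program, its strand setting and the annotation release are not given in the sources used here. Groups were taken from the genotype entries of the labels.

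Counts were tested with edgeR 4.0.16 in R 4.3.3 (filterByExpr, TMM, glmQLFit and glmQLFTest, all 6 samples, no block), with Benjamini-Hochberg adjustment of p over 15878 genes. The study itself used DESeq2. Standard errors were derived from the log2 fold change and its F statistic. Alternatives were DESeq2 1.42.0, limma 3.58.1 on log2(FPKM + 1) or log2(FPKM + 0.1), other normalizations and filters, glmTreat, a replicate block and each sample left out. On simulated counts for 15878 genes of OE against NC, edgeR recovered 67 of 100 genes changed by a log2 of 0.5 and 94 of 100 changed by 1.5, with 17 false calls. No other genes were changed in the simulation, while 7715 genes had an edgeR adjusted p under 0.05 in the data. Positions came from GENCODE release 44, in which 99.8% of the gene identifiers were found, and start windows and snoRNAs from RefSeq. Replicates were not copies of one library: their mean chi-square per gene was 5.13 to 11.8. The members and lists were chosen with earlier results of these data known. Of each list, the 3 higher and 3 lower genes with the smallest adjusted p and those past a fold change of 2 are named, as are all tested neighbours and the snoRNAs with a row, apart from some results that are not reported here. RP11-321N4.5's further overlaps, SYNCRIP and SNX14, were chosen after values were seen. Plots were made in Python 3.11.15 (matplotlib 3.10.9).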

Additional observations from a re-analysis of the deposited data

How the results depend on the processing

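In 16 alternative settings, GAS5 and ZFAS1 kept their direction and an adjusted p under 0.05, and SNHG1, SNHG8, SNHG15 and SNHG29 did so in 15, all but glmTreat's test against a fold change of 2, under which 2 of the 10 genes were higher and 186 of all tested genes passed. The number of the 10 genes lower was 1, namely EPB41L4A-AS1, with upper quartile normalization and 1 where a gene needed 10 counts or more in each sample, and 0 to 1 with a sample left out. SNHG12, close to 0, changed sign to 0.0092 with limma on log2(FPKM + 1), with or without a minimum FPKM of 1 in 3 samples, and to 0.0122 on log2(FPKM + 0.1). With a sample left out it ranged from −0.0688 to 0.0695 (positive, at 0.0695, 0.0039 and 0.0367 without NC replicate 3, OE replicate 2 and OE replicate 3). SNHG5 was not tested under the minimum FPKM. Without NC replicate 2, 6 of the 10 genes were higher, 0 lower and 2 past a fold change of 2. Samples that share a number did not move together around their group means (correlations −0.0191, −0.173 and −0.175 over the tested genes for replicates 1, 2 and 3). These values gave no sign that the numbers pair the samples, but with 3 samples per group they cannot exclude it. With the replicate number as a block, 6 of the 10 genes were higher, 0 lower and 2 past a fold change of 2, and 7065 genes had an adjusted p under 0.05 against 7715 without it. The counts of the 5 lists were recomputed under these settings after the data had been seen. SNHG5 averaged 52.0 counts per sample and the snoRNAs within the 10 genes had at most 14 in any sample.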
